A study of Mus musculus with 16 samples.

Results

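The genes described here encode 10 enzymes of triglyceride synthesis in mouse liver: the glycerol-3-phosphate acyltransferases Gpam, Gpat3 and Gpat4, the lysophosphatidate acyltransferases Agpat2 and Agpat3, the phosphatidate phosphatases Lpin1 and Lpin2, the monoacylglycerol acyltransferase Mogat1, and the diacylglycerol acyltransferases Dgat1 and Dgat2. They were taken by symbol, as a list, from 55471 gene identifiers in the count files, and all 10 were among the 17046 genes with enough fragments to be tested. RNA from snap-frozen liver of 16 mice was sequenced, 4 mice in each of 4 groups. The young mice were 12 weeks old and had received no antibiotics. The aged controls were 102 weeks old and had also received none. The aged mice labelled PAM I and PAM II were 102 weeks old and had been exposed to antibiotics, which the title of the series places in early life. The drugs, their doses and the meaning of the group names were not given in the sources used here, nor were sex, strain or cage. Young mice were available without antibiotics only, so the difference between antibiotic-exposed aged mice and young mice holds age and exposure together, and these cannot be told apart in it.

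Triglyceride is made in the endoplasmic reticulum by adding fatty acids to a glycerol backbone step by step. A glycerol-3-phosphate acyltransferase adds the first fatty acid and a lysophosphatidate acyltransferase the next, which gives phosphatidate, the branch point to several phospholipids. A lipin removes the phosphate to give diacylglycerol, and a diacylglycerol acyltransferase adds the last fatty acid. A monoacylglycerol acyltransferase reaches diacylglycerol by a shorter route that needs neither glycerol 3-phosphate nor a lipin. Hepatocytes secrete the product in lipoproteins or keep it in lipid droplets, and fatty liver is a state in which the droplets are large or numerous.

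The libraries held 36968993 to 52090914 fragments assigned to genes. Hepatocyte markers (10 genes, among them Alb and Apoa1) summed to 70499 to 128300 CPM (the usual count measure relative to library size, here with sizes scaled by the TMM method) over the 16 libraries, and edgeR called none of the 10 against young mice (DESeq2 called 0, 1 and 1 in aged controls, PAM I and PAM II, and limma voom 0, 2 and 0). Even so, the mean log2 CPM of these 10 was at most 11.884 in every aged liver and at least 11.93 in every young one. Only 1, 1 and 2 of the 10 had positive log2 fold changes against young mice, with the groups in the same order. Their medians were -0.121, -0.215 and -0.101, and the cause of this small shift was not tested. Some libraries stood apart. Skeletal muscle transcripts summed to 15.5 to 132 CPM in 6 aged livers (aged control replicate 2, PAM I replicates 1 and 2, PAM II replicates 2, 3 and 4) and to 1.16 to 5.89 CPM in the other 6. Young livers spanned 1.32 to 136 CPM of the same transcripts. The clock gene Dbp stood at 45.8 CPM in young replicate 1 and at 1.97 to 6.01 CPM in the other young livers, and the time of day of collection was not given in the sources used here. The files do not say whether the 4 libraries of a group came from separate litters, so p-values measure the spread between these libraries.

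Of the 10 genes, Gpat3 and Mogat1 rose in aged livers and the other 8 did not pass the test. Against young mice, 2 of 10 were higher and 0 lower in the aged controls, where 3.23% of all genes tested were called in either direction and 1.92% were called higher. Counts against young mice were the same, 2 higher and 0 lower, in PAM I (all genes 8.22%, and 4.83% higher) and in PAM II (all genes 5.19%, and 3.17% higher). The call rests on edgeR's quasi-likelihood test, with p-values adjusted over all genes tested (Benjamini-Hochberg) and a limit of 0.05. These 3 comparisons share the same 4 young livers and do not support one another. The median log2 fold change of the 10 genes was 0.03 in aged controls, 0.10 in PAM I and 0.21 in PAM II, against -0.01, -0.02 and -0.02 for all genes tested. Gpat3 and Mogat1 were also the 2 of 10 whose aged and young libraries did not overlap in any of the 3 comparisons. Over all genes such separation was seen for 9.27% in aged controls, 16.9% in PAM I and 14.3% in PAM II.

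The RefSeq promoter windows of Gpat3 and Mogat1 are given because these are the 2 genes that rose. Each window runs from 250 bases before to 50 bases after the annotated start, on the plus strand of GRCm38.p6, as chr5:100845979-100846278 for Gpat3 and chr1:78510810-78511109 for Mogat1. Capitals mark motif matches: the GC box GGGCGG in Gpat3, and the CCAAT box, read on the opposite strand, in Mogat1.
Gpat3: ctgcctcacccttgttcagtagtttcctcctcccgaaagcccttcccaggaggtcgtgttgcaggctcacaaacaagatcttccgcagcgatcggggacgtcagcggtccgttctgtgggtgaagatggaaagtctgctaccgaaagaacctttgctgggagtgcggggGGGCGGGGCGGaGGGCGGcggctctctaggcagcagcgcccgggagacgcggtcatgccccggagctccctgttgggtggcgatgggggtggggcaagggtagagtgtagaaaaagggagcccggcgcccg
Mogat1: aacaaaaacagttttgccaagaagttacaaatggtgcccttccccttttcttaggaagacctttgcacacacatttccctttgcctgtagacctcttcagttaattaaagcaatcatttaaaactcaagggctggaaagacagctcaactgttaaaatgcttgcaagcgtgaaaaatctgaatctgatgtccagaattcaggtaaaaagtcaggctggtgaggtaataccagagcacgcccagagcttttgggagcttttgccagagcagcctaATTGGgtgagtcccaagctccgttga
The windows shared no motif of the 7 searched on both strands. Gpat3 held 3 GC boxes, the first and the next overlapping by a base, at 81 to 76, 76 to 71 and 69 to 64 bases before the start. Mogat1 held 1 CCAAT box, 24 to 28 bases into the transcript. Of 32851 windows of 300 bases, 35.7% held a GC box and 37.4% a CCAAT box, so both matches are common. The E-box CACGTG (7.2% of windows), the nuclear receptor half-site AGGTCA (16.3%), TATAAA (13.6%), the cAMP response element TGACGTCA (1.8%) and the sterol element TCACNCCAC (1.2%) were not in these letters. G and C made up 64.3% of the Gpat3 window and 43.7% of the Mogat1 window, against a median of 52.7%. Windows were found for 7 of the 10 genes. The other 5 genes held some of the same motifs. GC boxes were in the Agpat2 window, in 2 of 3 windows of Lpin2 and in 1 of 2 of Gpam, and CCAAT boxes were in the remaining window of each of Lpin2 and Gpam. The half-site was in the Lpin1 window and in 1 of Gpam, the E-box was in 1 of Lpin2, and the Agpat3 window held none of the 7.

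Gpat3 encodes an acyltransferase of the endoplasmic reticulum that is best known from adipose tissue (ENSMUSG00000029314; GRCm38 chromosome 5, 100845713 to 100899102, plus strand). Its level was 1.25, 2.77, 2.33 and 1.66 CPM in the 4 young livers. In the aged controls it was 11.5, 10.5, 20.2 and 9.98 CPM. All aged controls were above all young livers, and replicate 3 was the highest of the 16 libraries. PAM I livers had 12.96, 13.02, 9.06 and 11.5 CPM of Gpat3, and PAM II livers 14.5, 10.2, 7.68 and 7.95 CPM. The lowest of the 12 aged livers, PAM II replicate 3, was thus still above the highest young liver. The log2 fold change against young mice was 2.70 ± 0.29 in aged controls (SE of the fit, n = 4 each, edgeR adjusted p = 0.000145), which is 6.48-fold with a 95% interval of 4.20 to 9.98. It was 2.53 ± 0.29 in PAM I (edgeR adjusted p = 0.000224) and 2.32 ± 0.29 in PAM II (edgeR adjusted p = 0.000396). The young values rest on 41 to 111 fragments per library. An antisense gene, 4930458D05Rik, lies over Gpat3 and had 497 fragments over all libraries, against 6844 for Gpat3. The fragments were counted by strand.

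Markers of several immune cells were also higher in aged livers, those of recruited macrophages among them. Of 10 such genes, 4 were called higher than in young mice in aged controls, 6 in PAM I and 5 in PAM II, with medians of 1.98, 2.27 and 2.21 (log2). Gpnmb, a protein of lipid-laden macrophages that is named here after its values were seen, had 3.92 ± 0.57 in aged controls (edgeR adjusted p = 0.00153). Young livers had a summed level of 67.5 to 101 CPM. The sum lay between 148 and 349 CPM for aged controls, between 195 and 362 for PAM I and between 118 and 650 for PAM II, and none of the 10 was at 0 in any library. Over the 12 aged livers the level of Gpat3 and the mean of this list had r = 0.313, given as a description. Of 10 lymphocyte genes 1, 4 and 2 were called higher in aged controls, PAM I and PAM II (medians 1.29, 1.83 and 1.03), and of 12 Kupffer cell genes 0, 1 and 2. Of 10 endothelial genes 2, 1 and 0 were called lower. With the mean of the macrophage list as a covariate, an alternative chosen after seeing the data, Gpat3 had 2.27 in aged controls (edgeR adjusted p = 0.0223). In that fit the call was lost in PAM I (2.05, adjusted p = 0.0748) and in PAM II (1.87, adjusted p = 0.0518). Mogat1 was called in all 3 comparisons in that fit, with 4.32, 5.02 and 4.44. In whole liver, more cells of a type and more RNA per cell cannot be told apart. Of adipocyte markers, Adipoq, Plin1 and Lep each stayed at or under 0.062 CPM in every library. Retn was at or under 0.0998 CPM in young livers and reached 0.231 CPM in PAM I replicate 1. Its highest level was 0.281 CPM in PAM II replicate 4, on 12 fragments. The adipocyte list of 9 genes, of which 4 passed the filter on low counts, summed to between 51.2 and 110 CPM for young livers. Its sums were between 42.8 and 111 CPM for aged controls, between 95.4 and 159 for PAM I and between 91.2 and 112 for PAM II. In each aged group edgeR called 1 of these 4 higher than in young mice, the lipid droplet gene Cidec, and 1 lower, the adrenergic receptor gene Adrb3. Cidec alone had 12.2 to 68.7 CPM in aged controls, 64.6 to 113 in PAM I and 53.0 to 70.8 in PAM II. Young livers had 1.77 to 6.71 CPM of Cidec, so the sums do not give the level of the rest of the list. The median log2 fold change of the 4 tested genes against young mice was -0.616, -0.049 and -0.374 in aged controls, PAM I and PAM II. The part of these cell types in the level of Gpat3 was not tested beyond the fit with the macrophage list, which cannot cleanly separate it from age.

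Mogat1 encodes the monoacylglycerol acyltransferase of the shorter route, an enzyme that is scarce in lean mouse liver and known to increase in fatty liver (ENSMUSG00000012187; GRCm38 chromosome 1, 78510991 to 78538173, plus strand). Young livers had 0.794, 0.973, 0.291 and 0.456 CPM. Aged controls had 2.098, 10.3, 6.79 and 3.56 CPM. No aged control was as low as a young liver, but the aged controls themselves spread widely, with replicate 1 nearest to the young. PAM I livers had 7.57, 8.90, 4.11 and 9.97 CPM of Mogat1, and PAM II livers 3.76, 6.68, 5.57 and 9.12 CPM. The lowest antibiotic-exposed liver was therefore above the highest young one too. The log2 fold change against young mice was 3.18 ± 0.51 in aged controls (edgeR adjusted p = 0.00314), or 9.06-fold with a 95% interval of 4.30 to 19.1. It was 3.60 ± 0.51 in PAM I (edgeR adjusted p = 0.00102) and 3.32 ± 0.51 in PAM II (edgeR adjusted p = 0.00197). The counts behind the young values are small, 12 to 39 fragments per library and 94 in all, and the intervals are wide accordingly. BC035947, a gene on the opposite strand that overlaps Mogat1, had 376 fragments over all libraries, against 3685 for Mogat1.

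**Figure D1:**
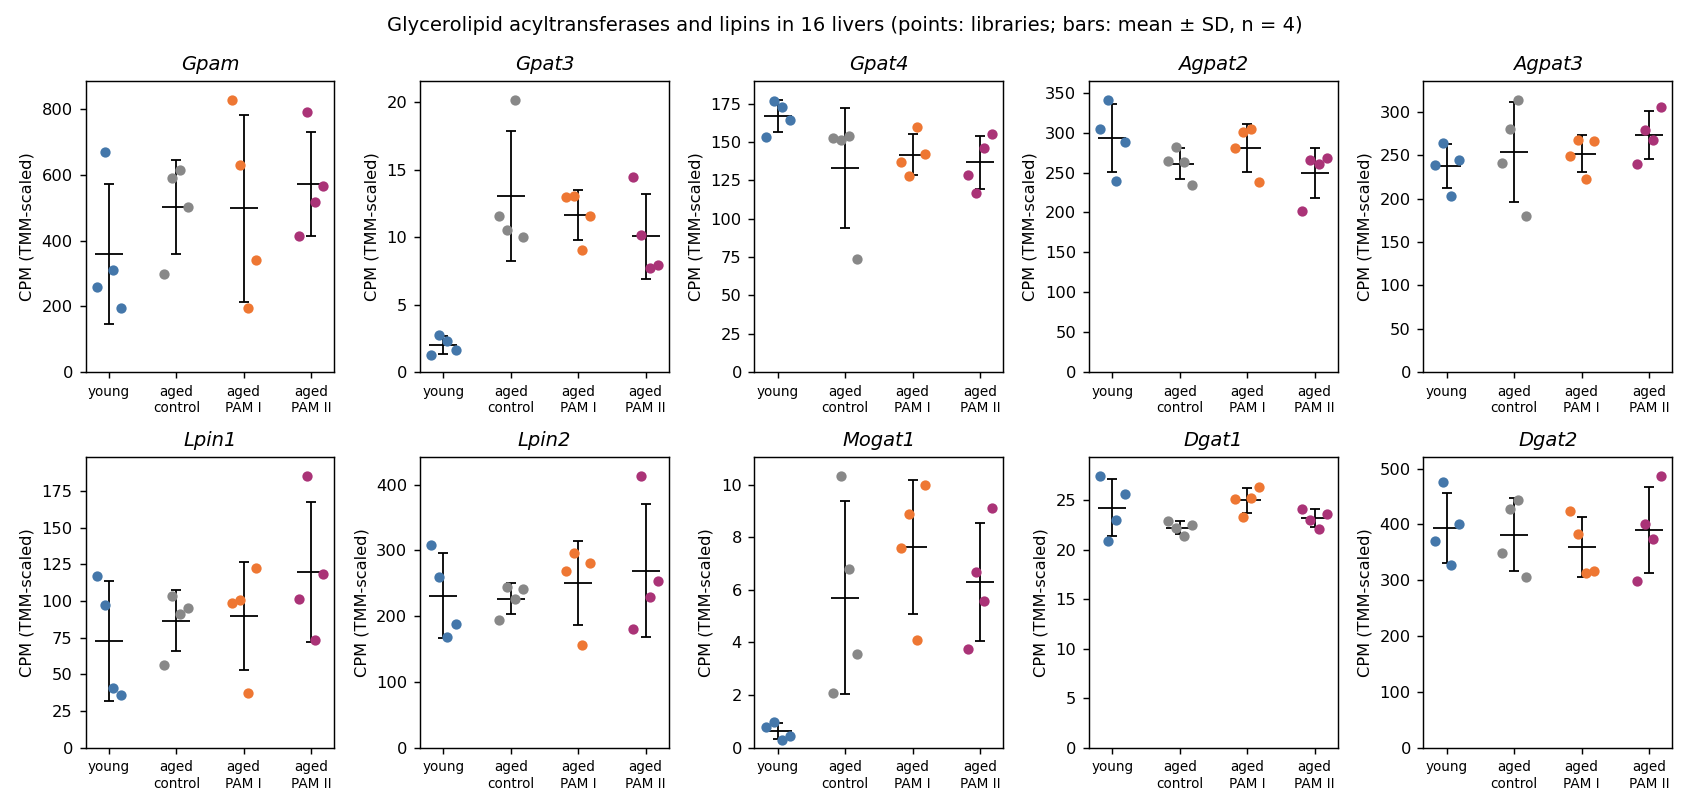
Level of each of the 10 genes in CPM (vertical axis, linear, from 0) in young, aged control, aged PAM I and aged PAM II livers (horizontal axis). Points are libraries, and the bars give the mean ± SD of 4. The young points of Gpat3 (1.25 to 2.77) and Mogat1 (0.291 to 0.973) lie below all aged points, and for the other 8 genes young and aged points overlap in every aged group.

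At the first step, Gpam, the mitochondrial acyltransferase that feeds most hepatic triglyceride synthesis and follows insulin and SREBP-1c, varied widely within groups (ENSMUSG00000024978; chromosome 19, 55067268 to 55127238, minus strand). Young livers had 196 to 669 CPM with a mean of 359 ± 212 (SD, n = 4), and aged controls 298 to 613 with a mean of 501 ± 143. The mean was 498 ± 285 CPM in PAM I and 573 ± 158 CPM in PAM II. The ranges overlapped, and the log2 fold changes of 0.48 ± 0.42, 0.47 ± 0.42 and 0.68 ± 0.42 did not pass the edgeR test (adjusted p = 0.58, 0.505 and 0.365). Their intervals reached from -0.41 to 1.38 in aged controls and from -0.22 to 1.57 in PAM II, so a change of 2-fold lies within both. Single libraries moved the Gpam value in aged controls, which was 0.28 without young replicate 4 and 0.98 without young replicate 2. Over the 12 aged livers Gpam had r = 0.94 with the mean of 9 feeding genes, among them Fasn and Acaca. Its r was 0.881 with 9 fasting genes and 0.059 with Srebf1. All 9 feeding genes had positive fold changes against young mice in each aged group, with medians of 0.482, 0.693 and 0.808 (log2). Of these, edgeR called 0, 0 and 1. The part of feeding in these levels was not tested.

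Gpat4, the acyltransferase of the endoplasmic reticulum with the higher liver level, had a mean of 167 ± 10.4 CPM in young livers and 133 ± 39.3 CPM in aged controls (ENSMUSG00000031545; chromosome 8, 23171265 to 23208346, minus strand). The control mean was set by replicate 4 at 74.0 CPM, while the other 3 controls had 152, 152 and 154 CPM. PAM I livers averaged 142 ± 13.3 and PAM II livers 137 ± 17.1 CPM. The log2 fold changes against young mice were -0.33 ± 0.18, -0.24 ± 0.18 and -0.29 ± 0.18, none called by edgeR (adjusted p = 0.343, 0.435 and 0.369). Without aged control replicate 4 the value for Gpat4 in aged controls was -0.13.

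Agpat2 and Agpat3 add the second fatty acid to glycerol 3-phosphate. Loss of Agpat2 causes a generalized lack of body fat with fatty liver. Agpat2 (ENSMUSG00000026922; chromosome 2, 26593057 to 26604417, minus strand) averaged 293 ± 42.1 CPM in young livers, 261 ± 19.8 in aged controls, 281 ± 30.2 in PAM I and 249 ± 31.3 in PAM II. Agpat3 (ENSMUSG00000001211; chromosome 10, 78269178 to 78352489, minus strand) averaged 238 ± 25.5, 254 ± 57.2, 252 ± 21.2 and 273 ± 27.6 CPM in the same order. For Agpat2 the log2 fold change against young mice was -0.17 ± 0.13, -0.06 ± 0.13 and -0.24 ± 0.13, and for Agpat3 it was 0.09 ± 0.15, 0.08 ± 0.15 and 0.20 ± 0.15. None passed the edgeR test (adjusted p = 0.294 at the lowest), and young and aged values overlapped. Egfl7, on the strand opposite Agpat2, had 17188 fragments against 191032.

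The lipins remove the phosphate of phosphatidate and also act in the nucleus as coregulators. Lpin1 follows fasting and the clock in liver, and Lpin2 is the lipin with the higher level there. Lpin1 (ENSMUSG00000020593; chromosome 12, 16535669 to 16610966, minus strand) fell into separate pairs among young livers, with 117 and 97.0 CPM in replicates 1 and 2 and 40.5 and 35.8 CPM in replicates 3 and 4. Aged controls averaged 86.6 ± 20.8, PAM I 89.8 ± 36.7 and PAM II 120 ± 47.6 CPM. The log2 fold changes against young mice, 0.25 ± 0.41, 0.31 ± 0.41 and 0.72 ± 0.41, were not called by edgeR (adjusted p = 0.79, 0.675 and 0.312). The Lpin1 value in aged controls was 0.033 without young replicate 4 and 0.58 without young replicate 1. With the clock genes Arntl and Dbp as covariates the 3 values were 0.40, 0.18 and 0.51, and again not called. Lpin2 (ENSMUSG00000024052; chromosome 17, 71182560 to 71249817, plus strand) averaged 231 ± 64.5 CPM in young livers, 227 ± 23.5 in aged controls, 250 ± 63.6 in PAM I and 269 ± 101 in PAM II. PAM II replicate 2 had the highest level of both lipins, 185 CPM of Lpin1 and 414 CPM of Lpin2. The edgeR fit gave Lpin2 differences of -0.03 ± 0.25, 0.11 ± 0.25 and 0.22 ± 0.25 on the log2 scale against young mice (adjusted p = 0.653 at the lowest).

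Dgat1 and Dgat2 catalyse the last step, Dgat2 chiefly on newly made fatty acids and Dgat1 more on those taken up. Dgat2 (ENSMUSG00000030747; chromosome 7, 99153658 to 99182719, minus strand) averaged 393 ± 62.9 CPM in young livers, 381 ± 65.2 in aged controls, 359 ± 53.6 in PAM I and 390 ± 77.6 in PAM II. Its log2 fold changes against young mice were -0.04 ± 0.17, -0.13 ± 0.17 and -0.01 ± 0.17, with an interval of -0.41 to 0.32 in aged controls (edgeR adjusted p = 0.922). Dgat1 (ENSMUSG00000022555; chromosome 15, 76502015 to 76511953, minus strand) was the steadiest of the 10 genes in the aged groups, with a coefficient of variation of 2.94% in aged controls, 4.96% in PAM I, 3.77% in PAM II and 11.8% in young livers. Its mean was 24.3 ± 2.87 CPM in young livers, 22.2 ± 0.655 in aged controls, 25.0 ± 1.24 in PAM I and 23.2 ± 0.877 in PAM II. The Dgat1 interval in aged controls against young mice ran from -0.31 to 0.06 (log2; edgeR adjusted p = 0.472), the narrowest of the 10.

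**Figure D2:**
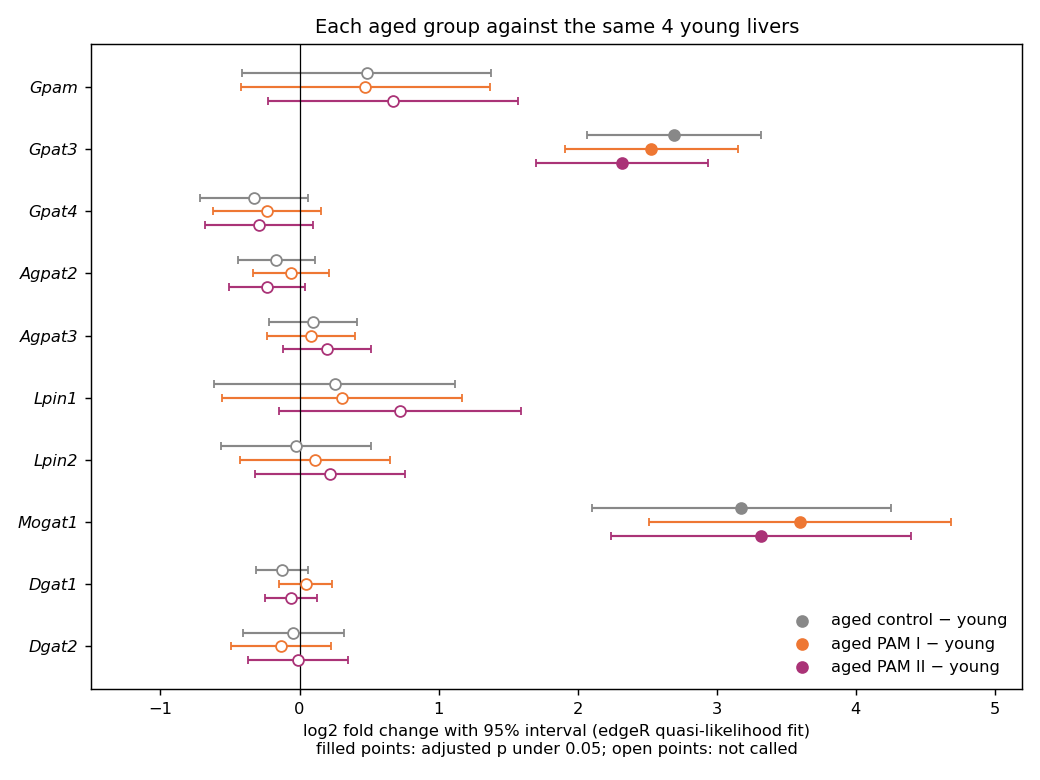
Log2 fold change of each gene in aged controls, PAM I and PAM II against the same 4 young livers (horizontal axis), with 95% intervals from edgeR's quasi-likelihood fit. Filled points were called. Gpat3 lies between 2.32 and 2.70 and Mogat1 between 3.18 and 3.60, and the intervals of the other 8 genes cross 0.

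Per kilobase of exon, Gpat3 and Mogat1 had the lowest mean levels of the 10 genes in every group. On the scale of CPM divided by exon length in kilobases (FPKM), young livers had 138 ± 19.8 of Agpat2, 128 ± 20.4 of Dgat2, 53.8 ± 31.8 of Gpam, 30.5 ± 3.28 of Agpat3, 25.0 ± 1.55 of Gpat4, 18.9 ± 5.28 of Lpin2, 7.95 ± 0.940 of Dgat1, 7.31 ± 4.10 of Lpin1, 0.572 ± 0.194 of Gpat3 and 0.403 ± 0.199 of Mogat1. Agpat2 and Dgat2 did not differ beyond their spread, nor did Dgat1 and Lpin1, nor Gpat3 and Mogat1. In aged controls Gpat3 reached 3.73 ± 1.37 and Mogat1 3.66 ± 2.35 FPKM, still under Dgat1 at 7.28 ± 0.214. Dgat2 (124 ± 21.1) and Agpat2 (123 ± 9.28) led there, and again were within their spread.

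Among Gpam, Gpat3 and Gpat4 of the first step, Gpat3 therefore stayed a small share. Gpat2 was left out of these shares, with a mean of 2.07 FPKM in young livers and 2.08 in aged controls. Of the summed FPKM of Gpam, Gpat3 and Gpat4, Gpat3 made up 0.744% ± 0.170 in young livers, with a range of 0.575 to 0.909 (SD, n = 4). The aged controls had a share of 3.81% ± 1.06 (2.63 to 4.77), PAM I 3.67% ± 1.01 and PAM II 2.78% ± 1.36. Every aged liver had a larger share than every young one. Gpam made up 64.7% ± 10.3 in young livers and 75.3% ± 8.86, 71.0% ± 14.3 and 77.8% ± 5.34 in the aged groups in the same order. Gpat4 made up the rest, with 34.6% ± 10.2 in young livers and 20.9% ± 8.24 in aged controls, and these ranges overlapped. At the last step Dgat2 held 94.0% ± 1.22 of the Dgat1 and Dgat2 sum in young livers and 93.3% to 94.3% on average in the aged groups. Of Agpat2 and Agpat3, Agpat2 held 81.8% ± 0.732 in young livers and 76.9% ± 1.196 in PAM II, and those libraries did not overlap (81.1 to 82.5 against 75.5 to 78.1). Its shares in aged controls (79.2% ± 2.98, 75.4 to 82.6) and in PAM I (80.2% ± 2.78, 76.6 to 83.3) did overlap those of young livers. Lpin2 led the lipins with 68.8% ± 5.01 in young livers, where Lpin1 held 24.7% ± 6.44 and Lpin3 6.47% ± 1.98. These shares are descriptions without a test.

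**Figure D3:**
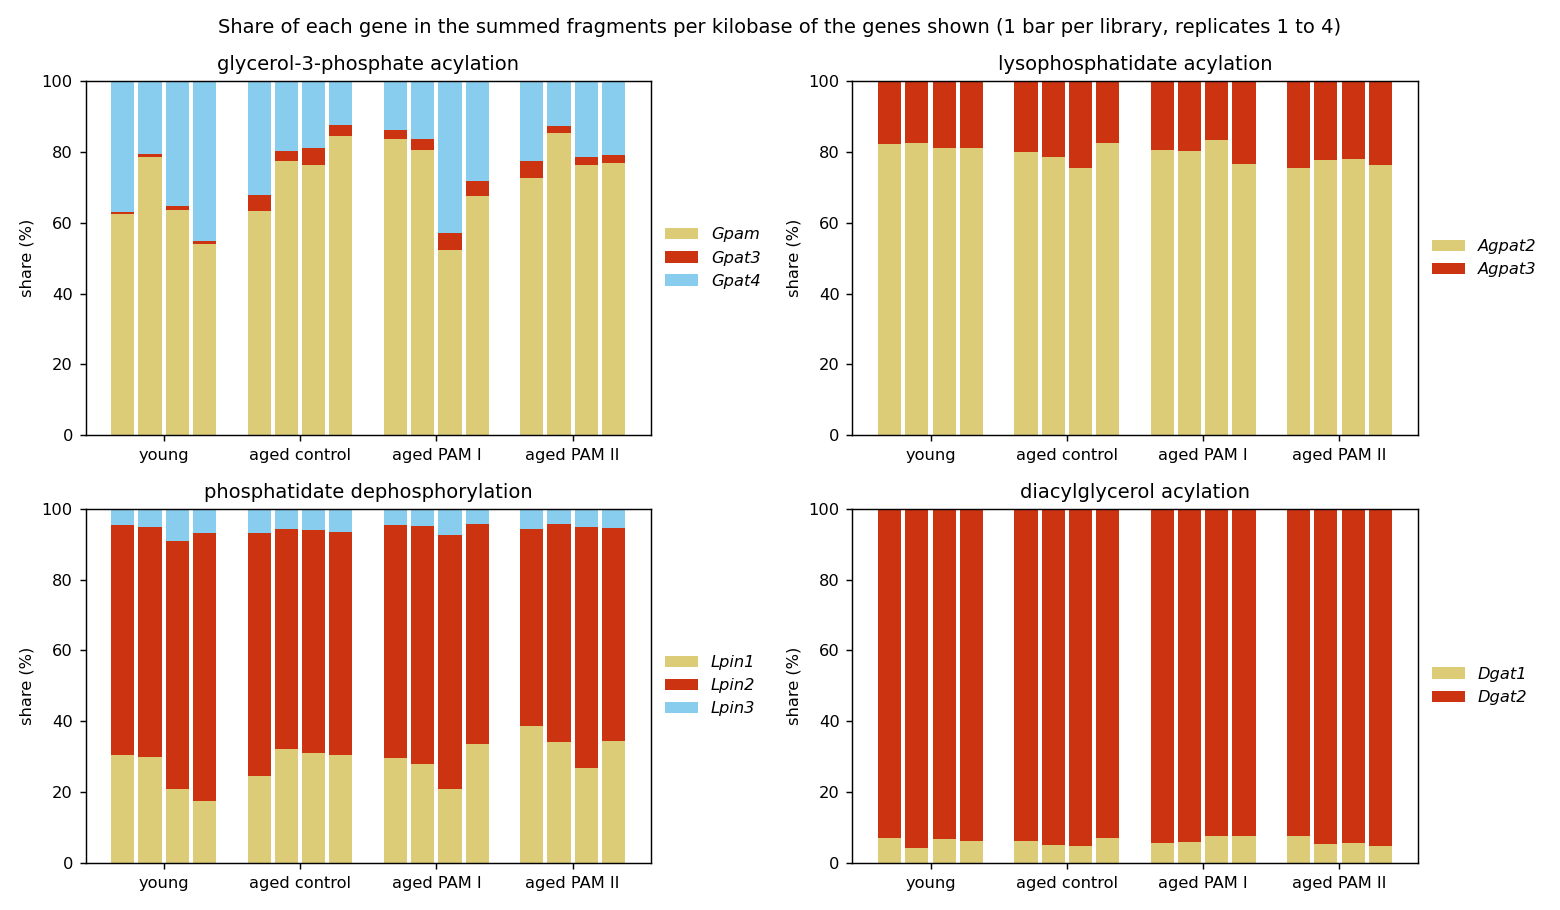
Share of each gene (vertical axis, %) in the summed fragments per kilobase of the genes shown, for 4 steps of triglyceride synthesis, with 1 bar per library in the order of replicates 1 to 4 in each group. The Gpat3 band is 0.575 to 0.909% in young livers and 2.05% or more in every aged liver, and Dgat2 holds 92.3% or more of the last step in every aged library.

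The antibiotic comparisons ask whether early exposure left a mark on these genes in the aged liver. None of the 10 genes was called in PAM I against aged controls, in PAM II against aged controls or in PAM II against PAM I. The share called among all genes tested was 0% in each of these, so the count says little about these genes in particular. At an unadjusted edgeR p under 0.05 there were 1602, 465 and 778 genes in the same order, none of them among the 10. DESeq2 called 14, 0 and 0 of all genes and limma voom 0, 0 and 0, again without any of the 10. Dgat1 came nearest, with 25.2, 23.3, 25.3 and 26.3 CPM in PAM I against 22.9, 22.2, 21.4 and 22.5 CPM in aged controls. These libraries did not overlap, as was so for 5.47% of all genes, and the log2 fold change of Dgat1 was 0.17 ± 0.09 (95% interval -0.02 to 0.36, edgeR adjusted p = 0.559). No other gene of the 10 separated any pair of aged groups, which 2.1% of all genes did in PAM II against controls and 4.66% in PAM II against PAM I.

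Gpat3 and Mogat1, which were higher in each aged group than in young mice, were not called between aged groups. Gpat3 had -0.16 ± 0.27 in PAM I and -0.37 ± 0.27 in PAM II against aged controls, with intervals of -0.74 to 0.41 and -0.95 to 0.20 on the log2 scale. For Mogat1 the values were 0.42 ± 0.44 and 0.14 ± 0.44, with intervals of -0.51 to 1.36 and -0.80 to 1.08. A change of Mogat1 of up to 2.57-fold in PAM I thus lies within its interval. Lpin1 had the highest point estimate of PAM II against controls, 0.47 ± 0.41 (-0.40 to 1.33), with a mean of 120 against 86.6 CPM and overlapping libraries. The intervals of Dgat2 against controls, -0.45 to 0.27 in PAM I and -0.33 to 0.39 in PAM II, were among the narrower ones.

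**Figure D4:**
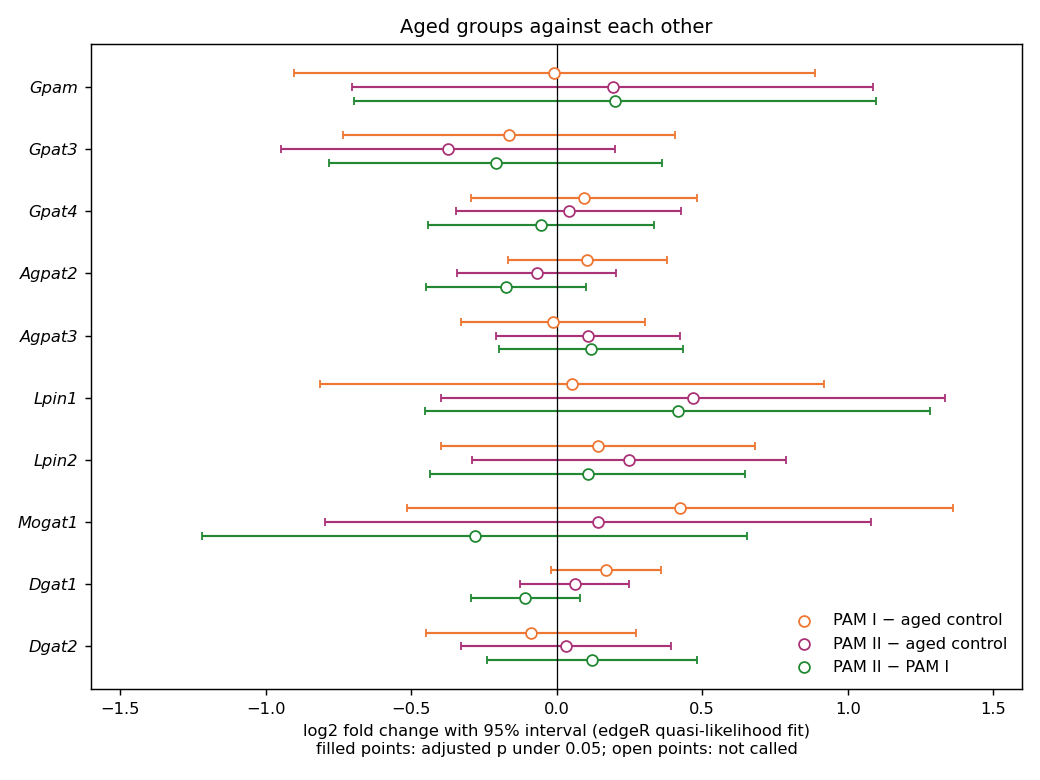
Log2 fold change of each gene between the aged groups (horizontal axis): PAM I against aged controls, PAM II against aged controls and PAM II against PAM I, with 95% intervals from edgeR's quasi-likelihood fit. All points are open because none was called, and every interval crosses 0. The interval of Dgat1 in PAM I, -0.02 to 0.36, comes closest to leaving it.

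Among other genes that catalyse the same steps, edgeR called Mogat2 in PAM II. Of 9 such genes (Gpat2, Agpat1, Agpat4, Agpat5, Lpin3, Mogat2, Lclat1, Lpgat1 and Tmem68), 0 were called against young mice in aged controls and in PAM I by edgeR, with 1 at an unadjusted p under 0.05 and 1 called by DESeq2 in each. Limma voom called 0 in aged controls, 2 in PAM I and 2 in PAM II. Mogat2, the monoacylglycerol acyltransferase of the intestine, was the 1 called by edgeR in PAM II, at 0.533 ± 0.207 CPM against 0.119 ± 0.0453 in young livers (log2 fold change 2.13 ± 0.54, edgeR adjusted p = 0.0319). Without aged control replicate 4 and young replicate 1, edgeR called 0 of the 9 in aged controls, 2 in PAM I and 0 in PAM II. The young level of Mogat2 rests on 18 fragments in all. Mogat2 had 1.72 ± 0.54 in aged controls (edgeR adjusted p = 0.0962) and 1.77 ± 0.54 in PAM I (0.0534). Gpat2, Agpat1 and Lpin3 had differences of -0.11 to 0.46 on the log2 scale and were not called.

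The supply of substrate showed no called gene. Of 13 measured genes for glycerol 3-phosphate supply and acyl-CoA formation, such as Gpd1, Gk and Acsl1, edgeR called 0 against young mice in aged controls, PAM I and PAM II, with 3, 1 and 3 at an unadjusted p under 0.05. DESeq2 called 1, 1 and 0. Medians were -0.04, -0.05 and 0.10 (log2), near those of all genes.

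A list of genes around other fates of phosphatidate and diacylglycerol, which includes enzymes that only remodel phospholipids, held a few calls, all higher in aged livers. Of 21 measured, 2 rose in aged controls, 3 in PAM I and 2 in PAM II, and none fell. Of all genes tested, 1.92%, 4.83% and 3.17% were called higher in these groups, and 3.23%, 8.22% and 5.19% in either direction. Mboat1, an acyltransferase that remodels phospholipids, rose in each (1.90 ± 0.45, 1.66 ± 0.45 and 1.73 ± 0.45; edgeR adjusted p = 0.0312, 0.0342 and 0.0354), with 0.434 ± 0.126 CPM in young livers and 1.64 ± 0.713 in aged controls. Crls1, which makes the mitochondrial lipid cardiolipin, rose by 0.40 ± 0.10 in aged controls and 0.42 ± 0.10 in PAM I (edgeR adjusted p = 0.0343 and 0.0187). Pgs1, which acts in the same pathway as Crls1, rose by 0.41 ± 0.12 in PAM I (0.0429), and Cds1, which diverts phosphatidate to phospholipids, by 1.96 ± 0.51 in PAM II (0.0361). PAM II replicate 1 had 115 of the 190 Cds1 fragments of its group, at 1.98 CPM. The other PAM II livers had 0.399 to 0.718 CPM. Young livers had 0.0916 to 0.389 CPM of Cds1, on 37 fragments in all. Without aged control replicate 4 and young replicate 1, 0 of these genes were called in aged controls, 4 in PAM I and 0 in PAM II.

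Regulators and partners of the pathway were called in the same direction where they were called. Of 16 measured, edgeR called 1 higher in aged controls, 3 in PAM I and 2 in PAM II against young mice, and 0 lower. The share of all genes tested that was called higher was 1.92%, 4.83% and 3.17% in the same order. With so few calls, their shared direction says little about this list. Pparg, a nuclear receptor that drives lipid storage, rose in all 3 groups. Young livers had 11.4 ± 2.77 CPM of Pparg, and the aged livers had 19.3 ± 4.28 among controls (log2 fold change 0.76 ± 0.19, adjusted p = 0.0398), 25.2 ± 4.15 in PAM I (1.14 ± 0.19, adjusted p = 0.00359) and 23.0 ± 2.76 in PAM II (1.01 ± 0.19, adjusted p = 0.00651). Fitm1, which helps lipid droplets form, rose by 1.36 ± 0.21 in PAM I and by 1.10 ± 0.21 in PAM II (adjusted p = 0.00222 and 0.00785). Hilpda, an inhibitor of triglyceride breakdown, rose by 1.14 ± 0.23 in PAM I (adjusted p = 0.00993). Without aged control replicate 4 and young replicate 1 these counts were 0, 3 and 2. No gene of these 4 lists was called between the aged groups.

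Across the 12 aged livers some of the 10 genes varied together. Pearson and Spearman correlations of log2 CPM were computed for 48 pairs, 45 among the 10 genes and 3 of Mogat1 with Cidea, Cidec and Pparg, and 6 pairs had an adjusted permutation p under 0.05. Mogat1 followed Cidea, a lipid droplet protein, with r = 0.808 (permutation p = 0.00013, adjusted p = 0.00624) and rho = 0.867 (permutation p = 0.00053, adjusted p = 0.0127). Without the 2 livers farthest from the median of the first gene of the pair, here Mogat1, r was 0.685. Within the 6 livers with more muscle transcripts it was 0.658 and within the 6 with less 0.872, and after subtracting each group's mean it was 0.786. Aged control replicate 1 was lowest in both, at 5.04 CPM of Cidea and 2.098 CPM of Mogat1, and PAM I replicate 4 was highest in Cidea at 163 CPM. Cidea stood at or under 0.0998 CPM in young livers.

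Lpin1 and Lpin2 had r = 0.847 (permutation p = 0.00091, adjusted p = 0.0218) and rho = 0.734 (permutation p = 0.00836, adjusted p = 0.134). Their r was 0.554 without the 2 farthest livers, so part of it rests on these. Within the livers with more and with less muscle transcripts it was 0.881 and 0.793. Agpat3 and Dgat2 had r = 0.766 (permutation p = 0.0018, adjusted p = 0.0288), rho = 0.888 (permutation p = 0.00019, adjusted p = 0.00912) and r = 0.736 without the 2 farthest livers, with 0.61 and 0.74 within the sets of 6. The r of the remaining 3 pairs was also lower without the 2 farthest livers. Leaving out the 2 farthest took Mogat1 with Cidec from r = 0.755 to 0.356, Gpam with Lpin1 from 0.751 to 0.213 and Gpam with Lpin2 from 0.742 to 0.503, with an adjusted permutation p of 0.0478 for each full r. Within the livers with more and with less muscle transcripts r was 0.432 and 0.801 for Mogat1 with Cidec, 0.577 and 0.748 for Gpam with Lpin1, and 0.682 and 0.572 for Gpam with Lpin2. Their rho values were 0.573, 0.406 and 0.671 (adjusted permutation p = 0.245, 0.47 and 0.158). Several of the paired genes also followed other lists over these 12 livers. Gpam, Lpin1 and Lpin2 had r = 0.94, 0.799 and 0.754 with the feeding genes and 0.881, 0.788 and 0.804 with the fasting genes. Agpat3 and Dgat2 had r = -0.632 and -0.852 with the recruited macrophage list. The part of these lists in the pairs was not tested.

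**Figure D5:**
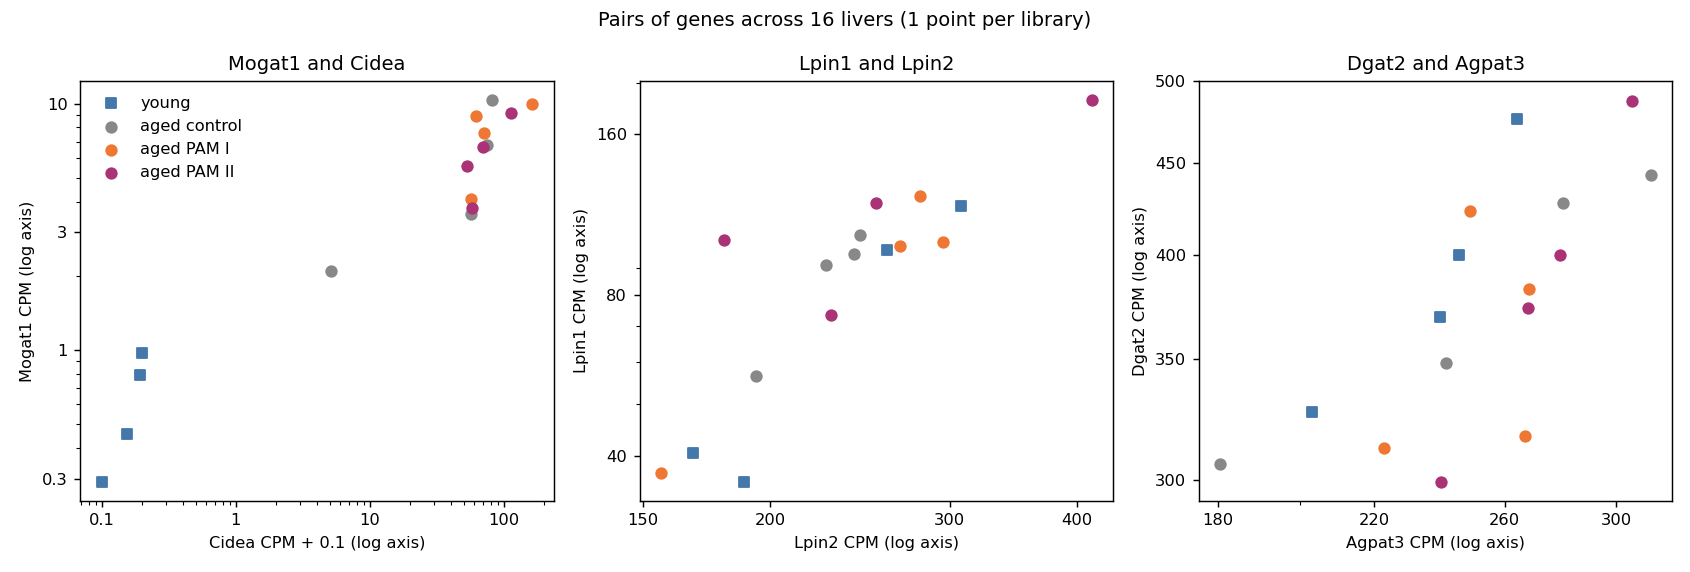
Levels in CPM of 3 pairs of genes over 16 livers on log axes, 1 point per library, squares for young and circles for aged livers: Mogat1 against Cidea (with 0.1 added to Cidea), Lpin1 against Lpin2 and Dgat2 against Agpat3. Correlations in the text are over the 12 aged livers, with r = 0.808, 0.847 and 0.766, and in the first pair the young livers form a separate cluster at low levels of both genes.

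The livers with more muscle transcripts also tended to hold more Gpam, at 518 to 828 CPM (median 611) against 194 to 613 (median 378) in the other 6 aged livers. For Mogat1 these ranges were 5.57 to 10.3 and 2.098 to 9.97 CPM, and for Dgat2 374 to 487 and 299 to 443 CPM. For Gpat3 they were 7.68 to 13.02 and 9.06 to 20.2 CPM. With the muscle list as a covariate Gpat3 had 2.49, 2.57 and 2.39 and Mogat1 3.34, 3.62 and 3.18 against young mice in aged controls, PAM I and PAM II, all called by edgeR, and none of the other 8 genes was called in that fit.

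The genes closest in pattern over the 12 aged livers differed from member to member. They were chosen as the highest Pearson r of log2 CPM among tested genes whose mean log2 CPM was 1 or more, leaving out the 10 genes themselves, predicted genes, Riken clones and pseudogenes, and are given as a description. Gpam was closest to Acaca (r = 0.972), Sc5d (0.951) and Acly (0.949), enzymes of fatty acid and sterol synthesis. Closest to Mogat1 were Gatb (0.967), Aldh1a7 (0.949) and Uqcrc2 (0.944). Gpat3 was closest to Sel1l3 (0.878), Foxa3 (0.867) and Ifrd1 (0.853). Over all 16 livers the r of these with Gpat3 was -0.568, -0.188 and 0.479. Dgat2 was closest to Aldh5a1 (0.982), and for Lpin1 they were Eepd1 (0.911), Mycl (0.903) and the fructose-metabolizing enzyme Khk (0.898). Gpat4 was closest to Ccdc117 (0.964), Agpat2 to Plpbp (0.916), Agpat3 to Iars2 (0.970), Lpin2 to Rab11fip3 (0.866) and Dgat1 to Lamtor2 (0.962). No gene was among the 3 closest of more than 1 of the 10.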

How the data were processed

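Liver RNA of 16 mice was sequenced as paired reads, 4 mice a group, with groups taken from the age and experimental group of each label; the free text of the young samples calls them aged. Deposited values are raw fragment counts per gene: per the submitters' processing notes the authors used Trimmomatic 0.38, HISAT2 2.1.0 with mm10 and featureCounts 1.5.0-p2, and per the file headers exons of Ensembl 99 (GRCm38) were summed per gene with strand setting 1. Symbols matched for 55230 of 55471 identifiers.

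Counts were fitted in R 4.3.3 with edgeR 4.0.16 (filterByExpr, TMM, robust quasi-likelihood, 1 mean per group over 16 libraries, biological coefficient of variation 27.3%), two-sided, adjusted over 17046 genes and tested on simulated data. Alternatives were other scalings and filters, DESeq2 1.42.0, limma 3.58.1 voom, fits of only the groups compared, covariates (Arntl and Dbp; muscle; macrophages, added after seeing the data), and libraries left out. Correlations used 100000 permutations. No library pair was a copy, the closest differing by 0.288 (root mean square, log2). Counting precision ignores duplicate molecules. The genes and lists were chosen with earlier results of these data known. All 10 genes are named, with up to 4 called genes of smallest p per other list and comparison, the remaining isoforms Lpin3, Agpat1, Gpat2 and Mogat2, Cidea, Cidec and Pparg beside Mogat1, and the genes of most similar pattern.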

Additional observations from a re-analysis of the deposited data

Results flagged for a closer look

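Among 40 groups of 4 libraries examined, 3 held a library far from its group, where chance would give about 1 in 20. Gpat3 stood at 20.16 CPM in aged control replicate 3, and the other aged controls lay between 9.98 and 11.5 CPM. Without that library the log2 fold change of Gpat3 in aged controls against young mice was 2.41 (edgeR adjusted p = 0.000307, n = 3 and 4). Gpat4 stood at 74.02 CPM in aged control replicate 4, and the other aged controls lay between 151.6 and 153.7 CPM. Agpat2 stood at 202.2 CPM in PAM II replicate 1, and the other PAM II livers lay between 260.5 and 267.7 CPM; that liver also had the highest sum of the macrophage markers, 650 CPM.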

How the results depend on the processing

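Gpat3 and Mogat1 were called against young mice in all 3 aged groups under each of the 11 alternatives and in each fit with 1 library left out, except that the macrophage covariate, added after seeing the data, left 1 gene called in PAM I and 1 in PAM II against young mice. With 1 library left out the log2 fold change of Gpat3 ran from 2.09 to 2.90 and that of Mogat1 from 2.72 to 3.90 over these 3 comparisons. No gene of the other 8 was called anywhere. No paired analysis was possible because the labels pair no mice across groups. The count over all genes moved more: for aged controls against young mice it was 551, with 129 (macrophage covariate) to 1341 (DESeq2), and 199 without young replicate 4. For PAM I against young mice it was 1401, with 100 (macrophage covariate) to 2599 (limma voom), and 544 without PAM I replicate 4. For PAM II against young mice it was 884, with 190 (macrophage covariate) to 1848 (DESeq2), and 373 without young replicate 4. Low counts of Mogat1 in young livers limit its precision.

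Changes of sign occurred only in fold changes that were not called, and their cause was not tested. With Arntl and Dbp as covariates the log2 fold changes were Lpin2 0.081 for aged controls against young mice and Agpat2 0.047, Dgat1 -0.017 and Dgat2 0.11 for PAM I against young mice. There were also Dgat2 0.17 for PAM II against young mice and Gpam 0.24, Gpat3 0.044, Agpat3 0.16, Lpin1 -0.22 and Dgat2 0.11 for PAM I against aged controls. There were also Agpat2 0.015 and Dgat1 -0.026 for PAM II against aged controls. With limma voom and sample quality weights the values were Lpin2 0.16 and Dgat2 0.024 for aged controls against young mice and Dgat2 0.033 for PAM II against young mice. There were also Gpam 0.060 and Gpat4 -0.072 for PAM I against aged controls and Gpat4 -0.061 for PAM II against aged controls. There were also Gpat4 0.011 for PAM II against PAM I. With no filter on low counts the values were Dgat2 0.010 for PAM II against young mice. With the macrophage list as covariate the values were Gpat4 0.11, Agpat2 0.26, Lpin2 0.28 and Dgat2 0.59 for aged controls against young mice and Gpat4 0.28, Agpat2 0.41 and Dgat2 0.58 for PAM I against young mice. There were also Gpat4 0.16, Agpat2 0.17 and Dgat2 0.59 for PAM II against young mice and Gpam 0.034 and Agpat3 0.056 for PAM I against aged controls. There were also Dgat2 -1e-04 for PAM II against aged controls. With the skeletal muscle list as covariate the values were Lpin2 0.11 and Dgat2 0.036 for aged controls against young mice and Gpat3 0.074 and Lpin1 -0.023 for PAM I against aged controls. There were also Mogat1 -0.16 and Dgat2 -0.095 for PAM II against aged controls. With upper-quartile scaling the values were Lpin2 0.029 for aged controls against young mice and Agpat2 0.027 for PAM I against young mice. There were also Dgat2 0.038 for PAM II against young mice and Gpam 0.022 and Agpat3 0.038 for PAM I against aged controls. Without aged control replicate 4 and young replicate 1 the values were Lpin2 0.11 and Dgat2 0.017 for aged controls against young mice and Gpat4 -0.12 for PAM I against aged controls. There were also Gpat4 -0.17, Agpat3 -0.033, Mogat1 -0.036 and Dgat2 -0.066 for PAM II against aged controls. With 1 library left out in turn the ranges were as follows. For aged controls against young mice they were Agpat3 -0.019 to 0.23, Lpin2 -0.15 to 0.14 and Dgat2 -0.12 to 0.068. For PAM I against young mice they were Agpat2 -0.15 to 0.0091, Lpin2 -0.011 to 0.27 and Dgat1 -0.032 to 0.088. For PAM II against young mice they were Lpin2 -0.066 to 0.38 and Dgat2 -0.14 to 0.097. For PAM I against aged controls they were Gpam -0.39 to 0.24, Gpat3 -0.29 to 0.11, Gpat4 -0.12 to 0.15, Agpat3 -0.17 to 0.083 and Lpin1 -0.15 to 0.29. For PAM II against aged controls they were Gpam -0.0098 to 0.32, Gpat4 -0.17 to 0.11, Agpat2 -0.13 to 0.016, Agpat3 -0.033 to 0.22, Lpin2 -0.043 to 0.40, Mogat1 -0.14 to 0.60 and Dgat2 -0.10 to 0.14. For PAM II against PAM I they were Gpam -0.056 to 0.58, Gpat4 -0.11 to 0.025 and Lpin2 -0.17 to 0.27.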
